A study of Homo sapiens with 9 samples.

Results

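NDUFS6, UQCR11, TIMM13, MRPS30 and MRPL54 are 5 genes of the cell nucleus whose proteins work in mitochondria, and they were followed through 9 libraries of U-87 cells. They were chosen by name, with earlier results of these data known. Each was counted on exactly 1 of the 159067 RefSeq transcripts in the table. After transcripts of one gene were summed, the table came to 80013 genes or unnamed transcripts. All 5 were among the 609 genes with a mean of at least 10 counts per library that could be tested. The 13 genes of the mitochondrial genome were used only as a total, to see whether the nuclear and the mitochondrial parts of the same machinery moved together.

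U-87 is an established human glioblastoma cell line. RNA was taken after 24 h from untreated cells (3 libraries, Control) or from cells given evernic acid (EA), a metabolite of the lichen Evernia prunastri, and temozolomide (TMZ), a DNA alkylating drug. EA alone was given at 30 µM (EA30) or 45 µM (EA45), and TMZ alone at 600 µM (TMZ600). The combinations were 35 µM EA with 320 µM TMZ (EA35TMZ320), 20 µM EA with 380 µM TMZ (EA20TMZ380) and 20 µM EA with 580 µM TMZ (EA20TMZ580). Each treatment had 1 library, so the spread in every comparison of a single treatment came from the controls. The labels do not say whether the controls were separate cultures, and p-values therefore measure the spread between these libraries, which may be technical. For single treatments, much of the spread assigned to each gene was drawn from the other genes tested. Treatments were compared as groups only to show what they shared, since their doses differ. In those comparisons the spread also holds the differences between unlike treatments, which are not replicates.

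The libraries held 213566 to 490235 counts, of which 96265 to 205133 lay on nuclear genes. A count of 0 allowed by counting error up to 3 counts, or 6.81 CPM in EA30 and 14.4 CPM in EA35TMZ320. CPM are counts brought to one common library size with TMM factors, so that libraries can be compared. Of 7 genes listed as markers of a glioblastoma line, VIM, CD44, CHI3L1, GFAP and S100B were listed at 0 in every library, TNC had 2 counts in total, and NES had 706. A listing at 0 was not read as absence of a transcript, since 198 of 232 listed nuclear genes for mitochondrial proteins also had no count. The summed level of the 7 markers, which is nearly all NES (nestin, an intermediate filament protein), was 519 to 601 CPM in the controls and 49.99 to 157 CPM in the treated libraries. NES fell by 2.38 on the log2 scale over the 6 treatments (SE 0.31, edgeR adjusted p = 0.00101) and in each single treatment (adjusted p = 1.09e-10 to 1.28e-05), and its part in the results was not tested. Of 11 markers of other cell types, 10 were listed at 0 and VWF had 1 count in all. In bulk RNA, fewer cells of a kind and less RNA per cell cannot be told apart.

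Mitochondria make most of their ATP by oxidative phosphorylation, in which complexes I, III and IV pass electrons to oxygen and pump protons that drive the ATP synthase. A few core subunits are encoded in the mitochondrial genome and made on ribosomes inside the organelle. All other subunits, every protein of the mitochondrial ribosome and the import machinery are encoded in the nucleus, made in the cytosol and imported, so a working respiratory chain draws on both genomes. NDUFS6 is an accessory subunit of complex I (NADH dehydrogenase) and UQCR11 is a small subunit of complex III (the cytochrome bc1 complex). TIMM13 is a small TIM chaperone that guides hydrophobic precursors through the intermembrane space. MRPS30 and MRPL54 are proteins of the mitochondrial ribosome. The symbol of MRPS30 names the small subunit, but RefSeq also lists it as mL65, a name for a protein of the large subunit.

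The genes lie on 2 chromosomes of GRCh38.p14, the RefSeq assembly from which all positions and sequences here were taken. NDUFS6 (NM_004553, chr5:1801407-1816048) and MRPS30 (NM_016640.4, chr5:44808947-44815514) are on the plus strand of chromosome 5. MRPL54 (NM_172251.3, chr19:3762682-3767565) is on the plus strand of chromosome 19, while UQCR11 (NM_006830.4, chr19:1597169-1605462) and TIMM13 (NM_012458.4, chr19:2425625-2427586) are on its minus strand. The 120 bases before each annotated start are shown to set the start region of MRPS30, the gene that was higher in every treated library, beside those of the other 4 genes. Capitals mark matches on either strand to TGCGCA, the core of the site of NRF1, or to CCGGAAG, an ETS core, read also as CTTCCGG. Both kinds of factor are known for binding promoters of nuclear genes of oxidative phosphorylation.
NDUFS6: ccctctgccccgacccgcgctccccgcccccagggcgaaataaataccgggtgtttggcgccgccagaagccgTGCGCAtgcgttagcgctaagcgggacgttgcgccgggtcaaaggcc
UQCR11: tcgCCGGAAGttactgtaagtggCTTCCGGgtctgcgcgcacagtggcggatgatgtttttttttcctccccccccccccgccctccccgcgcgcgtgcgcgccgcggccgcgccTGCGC
TIMM13: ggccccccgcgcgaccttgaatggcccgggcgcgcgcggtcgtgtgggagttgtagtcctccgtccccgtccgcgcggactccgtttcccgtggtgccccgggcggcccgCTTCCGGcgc
MRPS30: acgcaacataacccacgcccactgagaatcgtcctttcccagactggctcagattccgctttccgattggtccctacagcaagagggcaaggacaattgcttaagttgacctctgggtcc
MRPL54: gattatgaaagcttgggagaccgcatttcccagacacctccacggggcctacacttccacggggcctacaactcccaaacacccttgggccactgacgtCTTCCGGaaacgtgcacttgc

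The regions are chr5:1801287-1801406 for NDUFS6, chr19:1605463-1605582 for UQCR11, chr19:2427587-2427706 for TIMM13, chr5:44808827-44808946 for MRPS30 and chr19:3762562-3762681 for MRPL54, each written 5′ to 3′ on the strand of its gene. The NRF1 core stood at position -47 from the start in NDUFS6 and at -5 in UQCR11, where its last base lies past the sequence shown. The ETS core stood at -117 and -97 in UQCR11, at -10 in TIMM13 and at -21 in MRPL54. MRPS30 had neither core. In windows from 250 bases before to 50 bases after the start, 8.24% of 35116 RefSeq promoters held the NRF1 core and 10.3% the ETS core. AAGATGG, a core of YY1 found in 5.84% of these windows, matched in MRPS30 at position 14 after the start, and TATAAA, the TATA box, found in 11.5%, matched in MRPL54 at -248. The searched motifs do not overlap one another in these windows. GC content of the 120 bases was 53.3% for MRPS30, 57.5% for MRPL54, 69.2% for NDUFS6, 70.8% for UQCR11 and 77.5% for TIMM13. A match describes letters in a window and says nothing of binding.

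Neighbouring genes bear on what the counts can hold, because the counting mode for strand is not given in the sources used here. MRPL36 overlaps NDUFS6 by 28 bases and TMPRSS9 overlaps TIMM13 by 637 bases, both on the opposite strand, and all of their transcripts were listed at 0. MRPS30-DT starts 153 bases from MRPS30 in the other direction and was also listed at 0. LMNB2, which encodes lamin B2, lies 579 bases upstream of TIMM13 on the same strand and had 368 to 477 counts in the controls and 88 (EA35TMZ320) to 472 (EA30) in the treated libraries, and its part in the counts of TIMM13 was not tested. Reads of overlapping genes cannot be told apart without strand.

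Of the complex I and complex III subunits, NDUFS6 was higher with TMZ600, EA20TMZ380 and EA20TMZ580 by up to 1.48 times the control mean, and UQCR11, above every control in 4 treated libraries, passed the test in EA20TMZ380. NDUFS6 had 2386, 2186 and 2148 CPM in the controls (2240 ± 128, SD, n = 3). With EA alone it had 2770 CPM in EA30 and 2619 CPM in EA45. With TMZ it had 3099 CPM in TMZ600, 3313 CPM in EA20TMZ380, 2946 CPM in EA20TMZ580 and 2100 CPM in EA35TMZ320. So 5 of the 6 treated libraries lay above every control and EA35TMZ320 lay below every control, though among them (4709 against 4605 to 4935 CPM) under TMM over nuclear counts alone. The log2 fold change was 0.56 in EA20TMZ380 (standard error, SE, 0.15; edgeR adjusted p = 0.00332), 0.47 in TMZ600 (0.15, edgeR adjusted p = 0.0349) and 0.40 in EA20TMZ580 (0.15, edgeR adjusted p = 0.0499). The values of 0.31 in EA30 (edgeR adjusted p = 0.174), 0.23 in EA45 (edgeR adjusted p = 0.263) and -0.09 in EA35TMZ320 (edgeR adjusted p = 0.678) missed the threshold of 0.05. The TMZ600 call was lost with the Wald test of DESeq2 (adjusted p = 0.187), with low counts kept (edgeR adjusted p = 0.072), without Control2 (0.195) and without Control3 (0.102). The EA20TMZ580 call was lost in the same 4 ways (DESeq2 and edgeR adjusted p = 0.139 to 0.205) and on transcripts not summed to genes (0.0528), while without Control1 EA30 passed (edgeR adjusted p = 0.0321).

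UQCR11 had 5332, 5101 and 5438 CPM in the controls (5290 ± 173, SD, n = 3). With TMZ600 it had 5732 CPM, with EA30 5288 CPM and with EA45 4656 CPM. The combinations EA20TMZ380, EA20TMZ580 and EA35TMZ320 had 7345, 5641 and 5921 CPM. EA20TMZ380 stood far above the rest, EA45 was the lowest of all 9 libraries, and EA30 lay among the controls. The log2 fold change in EA20TMZ380 was 0.47 (SE 0.13, edgeR adjusted p = 0.00516), and it lost its call without Control2 (edgeR adjusted p = 0.0732). Elsewhere it ran from -0.18 to 0.16, with adjusted p-values of 0.311 to 0.995 (edgeR). In EA35TMZ320 the value of 0.16 became 0.25 and passed when mitochondrial rows were left out (edgeR adjusted p = 0.0471).

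For the import chaperone TIMM13, no change was detected in any treatment. It had 1860, 1863 and 1709 CPM in the controls (1811 ± 88.0, SD, n = 3). The treated libraries ranged from 1616 CPM in EA35TMZ320 to 1986 CPM in EA45, 3 above and 2 below every control. Its log2 fold change lay between -0.16 and 0.13 in single treatments (edgeR adjusted p = 0.464 to 0.971).

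Of both ribosomal proteins, MRPS30 was higher in every treated library, by 1.28 to 3.64 times the control mean, and MRPL54 was lower in every treated library under TMM over all counts, though not under TMM over nuclear counts, and passed the test in EA20TMZ580 alone. MRPS30 had 78, 70 and 109 counts in the controls, or 266.3, 248.8 and 349.5 CPM (288 ± 53.8, SD, n = 3). With EA alone it had 579 CPM in EA30 (255 counts) and 860 CPM in EA45 (258 counts), and with TMZ alone 370 CPM in TMZ600 (127 counts). The combinations had 1050 CPM in EA35TMZ320 (219 counts), 917 CPM in EA20TMZ380 (301 counts) and 531 CPM in EA20TMZ580 (167 counts). The groups did not overlap, but TMZ600 was close to the highest control. The exact 95% Poisson intervals of their counts, which cover counting error only, were 106 to 151 for TMZ600 and 89.5 to 131 for Control3. Of all 609 genes tested, 8.05% had every treated library above every control.

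The log2 fold change of MRPS30 was 1.86 in EA35TMZ320 (SE 0.21, edgeR adjusted p = 1.16e-10), 1.66 in EA20TMZ380 (0.20, edgeR adjusted p = 2.45e-09) and 1.57 in EA45 (0.20, edgeR adjusted p = 9.31e-09). These 3 calls held under all 9 alternatives tried for each. It was 1.00 in EA30 (SE 0.21, edgeR adjusted p = 0.000237) and 0.88 in EA20TMZ580 (0.22, edgeR adjusted p = 0.00189). Both of these were lost with the Wald test of DESeq2 (adjusted p = 0.0872 and 0.130). In TMZ600 the value of 0.35 (SE 0.23) missed the threshold (edgeR adjusted p = 0.399).

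MRPL54 had 604, 629 and 635 CPM in the controls (623 ± 16.3, SD, n = 3). With TMZ600 it had 538 CPM, with EA30 552 CPM, with EA45 570 CPM, with EA20TMZ380 576 CPM and with EA35TMZ320 580 CPM, against 264 CPM with EA20TMZ580. All 6 treated libraries lay below every control, as they did for 10.7% of the genes tested. Under TMM over nuclear counts alone 4 of 6 did, with 1301 CPM for EA35TMZ320 and 1295 CPM for EA20TMZ380 against 1250 to 1361 CPM in the controls. EA20TMZ580 stood apart from the other 5, with 83 counts (exact 95% Poisson interval 66.1 to 103) against 121 to 243. Its log2 fold change was -1.24 (SE 0.23, edgeR adjusted p = 3.74e-05), and the call held under all 9 alternatives tried. Elsewhere it was between -0.21 and -0.10 (edgeR adjusted p = 0.613 to 0.732).

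**Figure D1:**
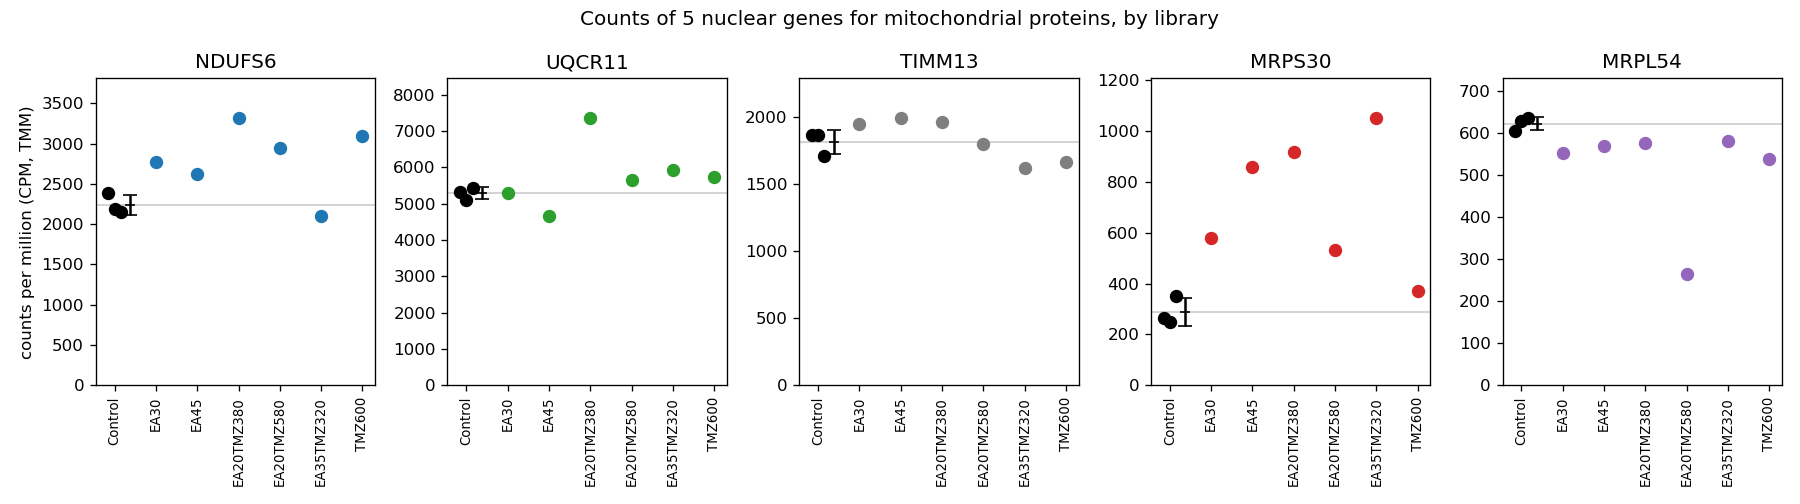
Level of each gene in CPM (TMM, linear axis from 0) by library: black points are the 3 controls with their mean and SD as a bar and the mean drawn across as a grey line, coloured points are single treated libraries. MRPS30 lies above the controls in all 6 treated libraries, from 370 to 1050 CPM, and MRPL54 drops to 264 CPM in EA20TMZ580.

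The number of the 5 genes that passed the threshold has to be read against all genes in the same library. The 5 were chosen with earlier results of these data known, so they are no independent sample of genes. In EA45 1 of 5 passed and 39.1% of all genes did, in EA35TMZ320 1 of 5 and 43%, and in EA30 1 of 5 and 17.6%. In TMZ600 1 of 5 passed, where 9.85% of all genes did. In EA20TMZ380 3 of 5 rose (MRPS30, NDUFS6 and UQCR11), where 26.1% of all genes were called, and in EA20TMZ580 3 of 5 were called (MRPS30 and NDUFS6 up, MRPL54 down), where 24.6% were. The median log2 fold change of the 5 genes was 0.47 in EA20TMZ380, against -0.12 over all genes, and between -0.09 and 0.13 in the other 5 treatments, against -0.13 to 0.01.

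**Figure D2:**
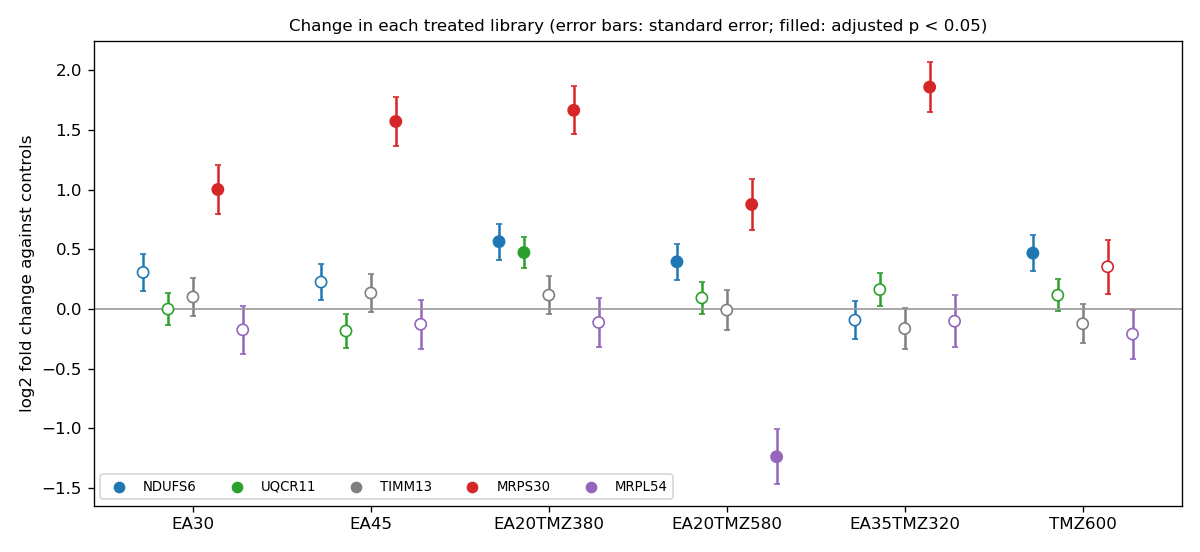
Log2 fold change of each gene in each treated library against the 3 controls, with its standard error as a bar; filled points have an edgeR adjusted p under 0.05. MRPS30 is filled in 5 of 6 treatments, NDUFS6 in 3, UQCR11 and MRPL54 in 1 each and TIMM13 in none.

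With the 6 treatments as 1 group against the controls, MRPS30 rose by a log2 fold change of 1.31 (SE 0.33, edgeR adjusted p = 0.0322) and was the only one of the 5 genes called, where 6.4% of all genes were. NDUFS6 had 0.33 (edgeR adjusted p = 0.288), UQCR11 0.12 (0.674), TIMM13 0.01 (0.964) and MRPL54 -0.28 (0.523). With the 3 combinations as 1 group, MRPS30 rose by 1.52 (SE 0.31, edgeR adjusted p = 0.0122), where 11.9% of all genes were called. NDUFS6 had 0.31 there (edgeR adjusted p = 0.352), UQCR11 0.25 (0.349), TIMM13 -0.02 (0.961) and MRPL54 -0.40 (0.414). The values of MRPL54 rested on EA20TMZ580, without which they were -0.10 over the 6 treatments and -0.04 over the combinations (edgeR adjusted p = 0.749 and 0.910). The call of MRPS30 over 6 treatments was lost without any 1 of the controls (edgeR adjusted p = 0.143 without Control1, 0.148 without Control2 and 0.0922 without Control3), without EA45 (0.0531) and without EA20TMZ380 (0.067), and its log2 fold change stayed between 1.22 and 1.47. Over the combinations it was lost without Control1 (0.0798) or Control2 (0.0675), and without EA35TMZ320 NDUFS6 passed with 0.54 (edgeR adjusted p = 0.04).

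Over all 9 libraries, MRPS30 was called for a term in EA concentration, and no gene of the 5 for a term in TMZ concentration. In a model with a term for each compound, the log2 change of MRPS30 was 0.39 per 10 µM EA (SE 0.067, edgeR adjusted p = 0.000974), a call that held in all 14 alternatives. The term was called for 27.3% of all genes, and the other 4 genes had -0.04 to 0.02 per 10 µM (edgeR adjusted p = 0.705 to 0.944). Per 100 µM TMZ the 5 genes had -0.08 to 0.09 (edgeR adjusted p = 0.326 to 0.812), with 3.61% of all genes called. A rise along the EA term is a fit through single libraries of unequal dose, so it shows no shape of the response. By library, MRPS30 had 917 and 531 CPM at 20 µM EA, 579 at 30 µM, 1050 at 35 µM and 860 at 45 µM. These levels did not rise in step with EA, and the libraries at 20 and 35 µM also had TMZ.

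Pairs of treatments that share a compound were also set side by side, after the values above were seen. Each arm is 1 library, the spread comes from the controls alone, and the values compare these libraries and not the treatments. With EA held at 20 µM, the log2 difference of EA20TMZ580 from EA20TMZ380 was -1.13 for MRPL54 (SE 0.27), -0.79 for MRPS30 (SE 0.25) and -0.38 for UQCR11 (SE 0.17). The low level of MRPL54 in EA20TMZ580 prompted this contrast, so it is given as a description, with 8.87% of all genes past the threshold in the same fit. Between EA45 and EA30 the largest difference of the 5 genes was 0.57 for MRPS30 (SE 0.25), where 10.3% of all genes were past the threshold. MRPS30 was not among them (edgeR adjusted p = 0.127), though it was without Control1 (0.0456), when 111 genes passed in place of 63.

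The mitochondrial genome took more of the counts in every treated library. Its 13 genes had 0.947, 0.939 and 0.965 counts per nuclear count in the controls (0.950 ± 0.0130, SD, n = 3). The ratio was 1.07 in TMZ600, 1.21 in EA45, 1.22 in EA35TMZ320, 1.34 in EA20TMZ380, 1.39 in EA30 and 1.42 in EA20TMZ580. All 6 treated libraries lay above every control, with TMZ600 the nearest to them. The ratio cannot tell more mitochondrial counts from fewer nuclear ones. Its nuclear part covers few genes, since 14.3% of those listed with 1 transcript and 10.2% of those with more had any count. It is therefore no measure of mitochondrial RNA in the cells.

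Set beside that total, the sum of the 5 nuclear genes was lower in 5 of 6 treated libraries. Nuclear counts as a whole also fell against it in every treated library, so a lower sum is not particular to these genes. Together they had 234, 224 and 229 counts per 10000 mitochondrial counts in the controls (229 ± 4.83, SD, n = 3). They had 249.2 with TMZ600, 172 with EA30, 180 with EA45, 219.8 with EA20TMZ380, 181 with EA20TMZ580 and 200.3 with EA35TMZ320, so 5 of 6 treated libraries lay below every control and TMZ600 lay above. As a share of nuclear counts the same sum was 2.11 to 2.22% in the controls and 2.18 to 2.96% in the treated libraries. The sum is mostly UQCR11 and NDUFS6, which hold most of the counts.

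By gene, the ratio to the mitochondrial total went in different directions, on a scale where 21.1% of the 596 nuclear genes tested had every treated library below every control and 2.35% had every one above. TIMM13 had 40.4 ± 2.07 counts per 10000 mitochondrial counts in the controls (SD, n = 3) and 28.7 in EA35TMZ320 to 36.3 in TMZ600, with all 6 treated libraries below every control. MRPL54 had 13.9 ± 0.336 in the controls (SD, n = 3) and 4.27 in EA20TMZ580 to 11.8 in TMZ600, again all 6 below. MRPS30 had 6.44 ± 1.18 in the controls (SD, n = 3) and 8.08 in TMZ600 to 18.7 in EA35TMZ320, all 6 above. Both subunits of the respiratory chain were mixed, with 4 treated libraries below every control and TMZ600 above. NDUFS6 went from 50.04 ± 2.96 in the controls (SD, n = 3) to 37.3 in EA35TMZ320 and 67.7 in TMZ600, and UQCR11 from 118 ± 3.66 (SD, n = 3) to 78.3 in EA45 and 125 in TMZ600.

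**Figure D3:**
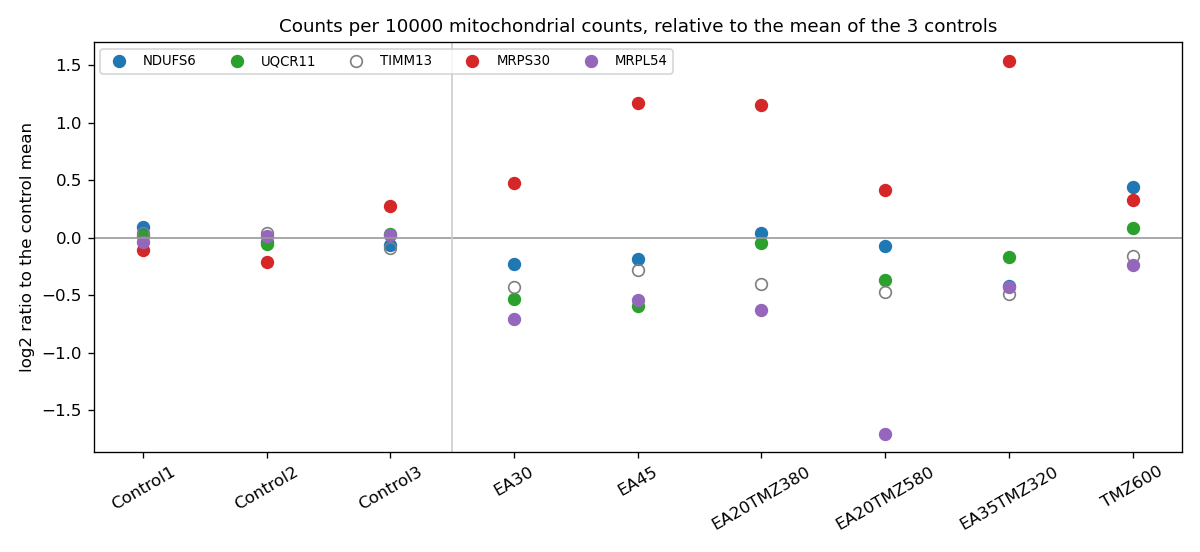
Counts of each gene per 10000 mitochondrial counts in each library, as the log2 ratio to the mean of the 3 controls. MRPS30 lies above 0 and TIMM13 and MRPL54 below 0 in all 6 treated libraries, with MRPL54 lowest in EA20TMZ580, at 4.27 counts per 10000.

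In a fit that scaled each library to its mitochondrial total, a log2 fold change of 0 means that a gene kept its ratio to that total. Over the 6 treatments the median of all 596 nuclear genes tested was -0.35, and 12.9% were called. None of the 5 genes passed: MRPS30 had 0.91 (SE 0.32, edgeR adjusted p = 0.0738), NDUFS6 -0.04 (0.21, edgeR adjusted p = 0.954), UQCR11 -0.25 (0.19, edgeR adjusted p = 0.391), TIMM13 -0.37 (0.19, edgeR adjusted p = 0.203) and MRPL54 -0.65 (0.28, edgeR adjusted p = 0.144). Relative to the median of all nuclear genes, UQCR11 and TIMM13 stood near 0. MRPS30 passed with the Wald test of DESeq2 (adjusted p = 0.0345) and without TMZ600 (edgeR adjusted p = 0.0261).

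Whether nuclear genes rose with the mitochondrial ratio within the treated libraries was asked by the slope on its log2, fitted on nuclear counts with a term for treated or not. No gene of 596 was called in edgeR (0%, with 17 at an unadjusted p under 0.05) or by the Wald test of DESeq2. The slopes of the 5 genes were 0.23 for NDUFS6, 0.34 for UQCR11, 0.47 for TIMM13, 0.75 for MRPS30 and -1.04 for MRPL54, with standard errors of 0.74 to 1.57 (edgeR adjusted p = 0.999 for each). With such errors, neither a slope of 1 nor a slope of 0 was told apart. Without TMZ600, the treated library with the lowest ratio, the slope of MRPS30 was -2.88 and 43 genes were called, none of them among the 5.

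**Figure D4:**
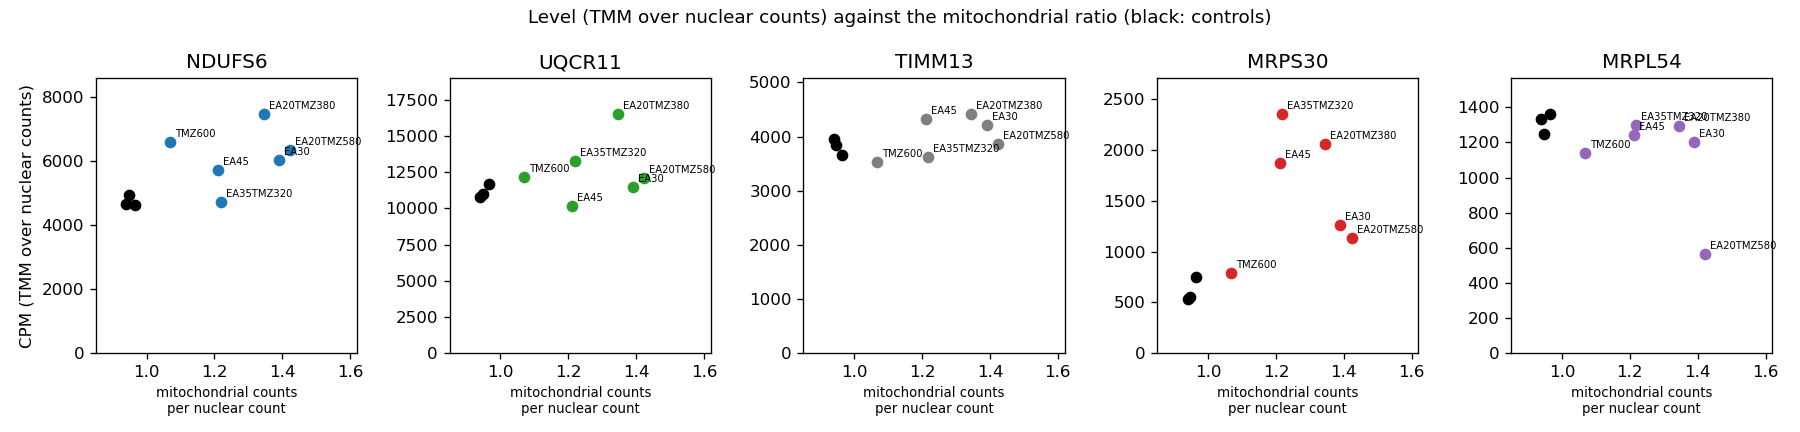
Level of each gene in CPM after TMM over nuclear counts (linear axis from 0) against mitochondrial counts per nuclear count, with 1 point per library and the 3 controls in black. The treated libraries lie to the right of the controls, between 1.07 and 1.42, and MRPS30 is highest at a ratio of 1.22, in EA35TMZ320, not at 1.42.

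The 5 genes also differed among themselves. Over the 9 libraries the Pearson correlation of their log2 CPM ran from -0.43 between NDUFS6 and MRPL54 to 0.47 between NDUFS6 and UQCR11, values that describe libraries sharing a group structure and a scale. Among 311 other genes with a mean of at least 50 counts, the pattern most like that of MRPS30 was that of CREB3 (r = 0.97). ALKBH3 (0.90) and SLC30A9 (0.85) were most like TIMM13. ROCK1 (0.81) was among both most like NDUFS6, EXOC3 (0.80) among both most like MRPL54, and both most like UQCR11 (0.83 and 0.79) were transcripts without a gene symbol.

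Few other genes of the same machinery could be measured. Of 233 nuclear genes listed for mitochondrial proteins, 232 were in the table, 198 were listed at 0 in all libraries, 24 fell below the filter and 10 were tested. Beside the 5 genes these were ATP5F1D (ATP synthase subunit delta), GRPEL1 (the exchange factor of mitochondrial HSP70), MRPL45 (a protein of the large ribosomal subunit), MTERF4 (which acts in assembly of the mitochondrial ribosome) and CLPP (the matrix protease). The list of complex I had 1 tested gene of 37, complex III 1 of 10, import 2 of 29, the list of the small ribosomal subunit 1 of 32 (MRPS30, despite its other name) and that of the large 2 of 50. Complexes II and IV had no tested gene. Over the 6 treatments and over the 3 combinations 1 of the 10 genes rose, MRPS30, and 0 fell in edgeR, beside 6.4% and 11.9% of all genes called.

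For each of the other 5, treated libraries and controls overlapped. Over the 6 treatments the log2 fold change was -0.31 for ATP5F1D (edgeR adjusted p = 0.567), -0.04 for GRPEL1 (0.933), -0.60 for MRPL45 (0.352), 0.14 for MTERF4 (0.775) and 0.01 for CLPP (0.978). MRPL45, a partner of MRPL54 in the large subunit, had 14 to 49 counts per library, and the SD of its controls was 39.8% of their mean. Its log2 fold change was -0.97 over the combinations (SE 0.42, edgeR adjusted p = 0.167) and -1.39 in EA20TMZ380 (SE 0.58, edgeR adjusted p = 0.0667). Of genes listed with 1 transcript, 14.3% had any count, and of genes with 2 or more 10.2%.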

How the data were processed

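U-87 RNA was sequenced from QuantSeq 3′ mRNA libraries. What the authors deposited is a table of raw counts by RefSeq transcript and library. The submitters' processing notes name HISAT2, HTSeq and hg38; versions and the counting mode are not given in the sources used here.

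Symbols came from RefSeq (GRCh38.p14). Accession and version both matched for 57755 transcripts (4 of the 5 genes) and the accession alone for 56301 (NDUFS6). The 45011 unmatched transcripts, with 4.63% of the counts, kept their identifiers. Transcripts were summed to genes. Controls differed by more than counting noise (chi-square per degree of freedom 3.63 to 5.84).

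Differences were tested with edgeR 4.0.16 (quasi-likelihood; R 4.3.3; TMM; mean of at least 10 counts), with Benjamini-Hochberg adjustment over all genes tested and a threshold of 0.05. Single treatments were fitted together over 9 libraries. Standard errors are the log2 fold change over the root of F. In the edgeR fits of single treatments the prior degrees of freedom, the weight given to the other genes, were 48.4. With the Wald test of DESeq2 the SE of MRPS30 in EA45 was 0.38, against 0.20 in edgeR. Alternatives were DESeq2 1.42.0 (size factors, Wald test), no filter, unsummed transcripts, mitochondrial rows left out, the treated library with controls alone, and leaving out each library. Correlations used log2 CPM with a prior count of 2. The named genes are the 5 genes, other listed genes called over the 6 treatments or the combinations, and for each of the 5 the 2 genes most correlated with it; naming the other tested list genes followed a look at their values. One marker of the cell line is not reported here. The 5 genes and all lists were chosen with earlier results of these data known. Figures were drawn with matplotlib 3.10.9.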

Additional observations from a re-analysis of the deposited data

Results flagged for a closer look

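The level of MRPL54 in EA20TMZ580, 264 CPM, stood far from those of the other 5 treated libraries, which lay between 538 and 580 CPM. Its gap to the nearest of them, divided by the range of all 6, was 0.868, above the critical value of 0.625 for 6 values. It was the only one of 11 sets of values examined to pass, and per 10000 mitochondrial counts the same library gave 0.567, below the limit. About 1 in 20 groups passes this limit by chance. The treated libraries differ in treatment, and EA20TMZ580 had no second library.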

How the results depend on the processing

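The 5 genes were recomputed under the 6 to 14 alternatives run for each comparison, 725 values in all: 667 kept their direction and their side of the threshold, 22 lost a call, 8 gained one and 28 changed sign, none of which was called. Each treatment rests on 1 library, and genes near 100 counts carry wide counting error. The number of the 5 genes called, leaving out 1 library at a time, was 0 to 1 over the 6 treatments, 0 to 2 over the combinations, 1 to 2 in EA30, 0 to 1 in TMZ600, 0 to 1 relative to the mitochondrial total, 1 to 3 for EA20TMZ580 against EA20TMZ380 and 0 to 1 for EA45 against EA30. With the Wald test of DESeq2 it was 0 in EA30, 0 in TMZ600, 1 in EA20TMZ580 and 1 relative to the mitochondrial total. Without the filter it was 0 in TMZ600 and 1 for EA20TMZ580 against EA20TMZ380, and with mitochondrial rows left out 2 in EA35TMZ320.

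TIMM13 over the combinations changed sign to 0.036 with size factors, 0.037 with the Wald test, 0.016 without the filter and 0.059 with mitochondrial rows left out, and leaving out 1 library gave -0.074 to 0.11. In EA20TMZ580 TIMM13 had 0.016 without the filter, 0.015 with mitochondrial rows left out and -0.056 to 0.011 without 1 library, and over the 6 treatments -0.031 to 0.060 without 1 library. UQCR11 in EA30 had 0.046 without the filter, 0.043 with mitochondrial rows left out, 0.050 with the treated library and controls alone and -0.030 to 0.013 without 1 library. Its EA term had 0.0095 with mitochondrial rows left out and -0.025 to 0.032 without 1 library. MRPL54 in EA20TMZ380 had 0.00017 with the treated library and controls alone. NDUFS6 relative to the mitochondrial total had -0.16 to 0.021 without 1 library. Slopes on the mitochondrial ratio without 1 library ran from -2.24 to 0.32 for MRPL54, -2.88 to 2.20 for MRPS30, -0.0033 to 1.59 for NDUFS6 and -0.029 to 0.81 for UQCR11. The causes were not tested.

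Over all genes, the Wald test called 89 for the 6 treatments (39 in edgeR; 51 higher and 38 lower, against 17 and 22), 24 with TMZ600 (60), 41 with EA30 (107), 111 with EA45 (238), 61 with EA20TMZ380 (159), 54 with EA20TMZ580 (150), 149 with EA35TMZ320 (262) and 42 for the TMZ term (22). Without the filter the counts were 101 in EA20TMZ380, 94 in EA20TMZ580, 15 for EA20TMZ580 against EA20TMZ380 (54), 37 for EA45 against EA30 (63) and 1 for the slope (0), which gave 7 without the term for treated or not. For EA20TMZ580 against EA20TMZ380, 31 higher and 23 lower became 22 and 26 with size factors and 14 and 22 with mitochondrial rows left out. Without 1 library the counts ran from 11 to 64 for the 6 treatments, 22 to 100 for the combinations, 33 to 78 in TMZ600, 99 to 164 in EA20TMZ580, 60 to 194 for the EA term, 7 to 36 for the TMZ term, 27 to 153 relative to the mitochondrial total (77) 0 to 43 for the slope, 20 (without Control2) to 75 for EA20TMZ580 against EA20TMZ380 and 50 to 111 (without Control1) for EA45 against EA30. No paired analysis was possible because the treatments have 1 library each and the numbers of the controls are shared with no other group.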
